A study of Homo sapiens with 2 samples.

Results

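The lineage transcription factors that divide small-cell lung cancer (SCLC) into subtypes were read in SBC-3, an SCLC cell line that grows attached and originated from a bone metastasis. The factors are NEUROD1, YAP1, POU2F3, INSM1, SOX2, NKX2-1, FOXA2, POU3F2 and ISL1, 9 of the 19061 genes that could be named on the arrays, and they were chosen by name, not by a threshold on these signals. One culture had been transfected with #1 siHOTAIR, an siRNA against the long noncoding RNA HOTAIR, and the other with the control siGFP, which is directed at green fluorescent protein, a jellyfish protein that human cells lack. Both conditions were thus transfected SBC-3 cells, each was measured on 1 one-colour Agilent array, and untransfected cells, the other HOTAIR siRNAs of the study and other SCLC lines were not analysed here. Neither condition had a replicate, so no P-value was computed, and array, culture and siRNA cannot be told apart. Each factor had 1 probe, and together they had 34 spots among the 42402 probes measured on both arrays. Signals are the processed signals of the scanner software, which are intensities without a fixed unit, and a signal is compared between the arrays and not between genes, since it depends on the probe. Sums over a marker list are totals of unlike probes and are given as such. Ratios are log2 values of #1 siHOTAIR over siGFP after each array was set to its 75th percentile, which was a signal of 650.3 for #1 siHOTAIR and 629.9 for siGFP.

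SCLC is usually a neuroendocrine cancer, and tumours and cell lines are often sorted by the factor that leads their gene expression. NEUROD1, a basic helix-loop-helix protein that binds DNA together with E proteins, leads a neuroendocrine form, POU2F3 leads a form with features of the chemosensory tuft cell, and YAP1, the coactivator restrained by the Hippo kinases, is found in forms with few neuroendocrine features. INSM1, SOX2, NKX2-1, FOXA2, POU3F2 and ISL1 are further factors of neuroendocrine, neural, lung or foregut identity that are used to describe these tumours.

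The siRNA is known by its sequence, and its antisense strand is shown because it is the agent under study. Capitals mark the seed, bases 2 to 8 from the 5′ end.
#1 siHOTAIR antisense: uCUCUCUGuacucccguucuu
HOTAIR itself was read from 1 spot, with a signal of 108 after #1 siHOTAIR and 244 after siGFP. The log2 ratio was -1.22, or 57.2% lower, in the direction of the labels. With the normexp background correction it was -0.76 and without background subtraction -0.73, both under 2-fold. The measurement SD of this ratio, taken from repeated spots of other probes at like signals, was 0.14, and it covers error within the arrays and not the difference between cultures. Of the reference genes, ACTB had ratios of -0.05 and -0.02 on its probes and GAPDH 0.00.

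The factors measured above background in SBC-3 cells were NEUROD1, YAP1 and SOX2. The scanner software called all their spots well above background on both arrays, which it did for 55.5% of the spots of the #1 siHOTAIR array and 58.3% of those of the siGFP array. The other 6 factors, POU2F3, INSM1, NKX2-1, FOXA2, POU3F2 and ISL1, were well above background on neither array. Genes well above background on 1 array or both are called detected here, and 68.2% of all named genes were. The lowest signal called well above background was 37.3 for #1 siHOTAIR and 28.6 for siGFP. The call is made spot by spot, and these lowest signals are not cut-offs for it. An undetected factor is one not called well above background, and it need not be absent from the cells.

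**Figure D1:**
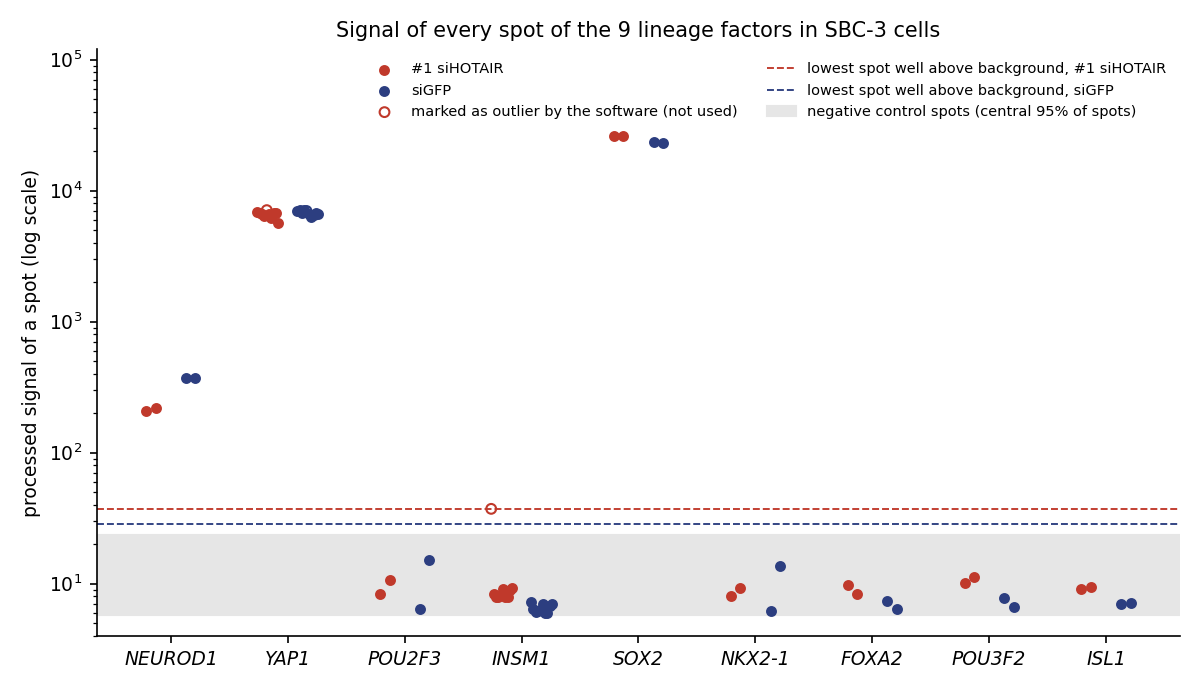
Processed signal of every spot of the 9 factors on a log axis, in red for the #1 siHOTAIR array and in blue for the siGFP array, with open circles for spots marked as outliers, dashed lines at the lowest spot called well above background on each array and a grey band for the negative control spots. Spots of NEUROD1, YAP1 and SOX2 lie above both lines, and those of the other 6 factors lie below them, except 1 INSM1 spot marked as an outlier, which at 37.2 on the #1 siHOTAIR array lies above the siGFP line.

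The undetected factors were set against spots that match no transcript. Each array held 308 negative control spots, with a median signal of 8.83 for #1 siHOTAIR and 6.71 for siGFP, and the central 95% of them lay between 7.52 and 23.4 and between 5.72 and 8.45. On the #1 siHOTAIR array, all 19 usable spots of the 6 factors lay within the central 95% of these controls. On the siGFP array 18 of 20 did, and 1 spot each of POU2F3 and NKX2-1 lay above it, at 15.1 and 13.5.

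The milder flag of the software, which asks that a spot be positive and significantly above background, was met by all spots of NEUROD1, YAP1 and SOX2. Of the 2 spots of POU2F3 and of POU3F2, 1 met it on each array, and 1 spot of NKX2-1 met it on the siGFP array. With this flag on at least 50% of the spots, 6 factors would count as detected in place of 3. The flag was also met by 4.55% and 4.22% of the negative control spots of the #1 siHOTAIR and siGFP arrays.

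NEUROD1 was the detected factor with the largest difference. Its spots had signals of 208 and 217 after #1 siHOTAIR and of 371 and 372 after siGFP. Both spots were lower after #1 siHOTAIR, and they are repeats within 1 array per condition. The log2 ratio was -0.85 with a measurement SD of 0.10, so the signal was 44.6% lower. The spots, in rows 169 and 318 of the 384 rows of the array, gave -0.88 and -0.82. In such bulk RNA, fewer cells with NEUROD1 and less NEUROD1 RNA per cell cannot be told apart.

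None of the 3 detected factors reached a 2-fold change, which 7.40% of the 24117 compared probes did (3.30% higher and 4.10% lower after #1 siHOTAIR), and 3.03% of the 21428 probes well above background on both arrays. Which direction held more probes depended on the scaling, with 795 probes higher and 989 lower here but 1025 higher and 781 lower with spike-in scaling. NEUROD1 was past 1.5-fold. At that threshold 9.74% of the compared probes were lower and 8.50% higher after #1 siHOTAIR, and 5.84% of the probes well above background on both arrays were lower. Of 4639 such probes with 2 spots, both spots were at least 1.5-fold lower in 4.03%. Among the 1206 of them within 1 log2 unit of the level of NEUROD1, the share was 5.97%. A difference past 1.5-fold, as NEUROD1 had, was therefore present in many probes between these arrays. How many probes differed by as much as NEUROD1 was not counted. NEUROD1 remained lower under each of the other scalings and background corrections, with ratios from -0.86 to -0.63.

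**Figure D2:**
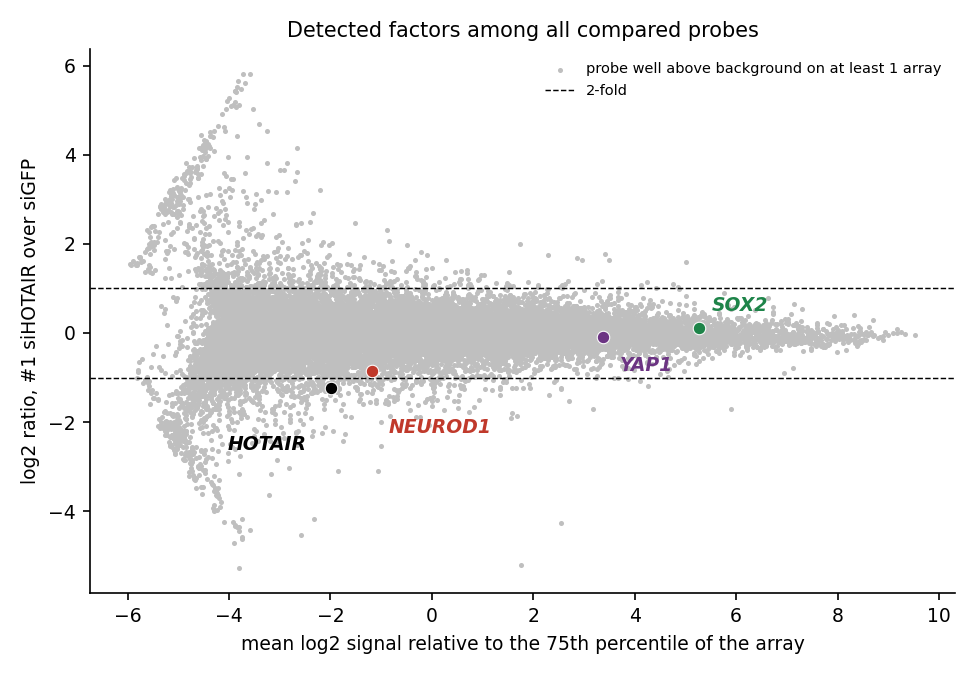
Log2 ratio of every probe well above background on at least 1 array (grey) against its mean log2 signal relative to the 75th percentile, with dashed lines at 2-fold. NEUROD1, at -0.85, lies inside the cloud below its centre, and YAP1 at -0.10 and SOX2 at 0.11 lie close to 0.

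The promoter of NEUROD1 is shown because this gene differed most among the factors. The 250 bases before its start lie at chr2:181680518-181680767 on the minus strand of GRCh38.p14 (sequence from RefSeq), and capitals mark the letters TATAA, searched on both strands.
NEUROD1: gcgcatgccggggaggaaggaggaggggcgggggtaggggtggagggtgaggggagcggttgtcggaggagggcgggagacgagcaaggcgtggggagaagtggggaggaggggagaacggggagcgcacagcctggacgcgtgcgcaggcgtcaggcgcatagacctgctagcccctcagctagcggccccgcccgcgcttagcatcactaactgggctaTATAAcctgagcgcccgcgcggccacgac
The match begins 29 bases before the start, and 18.9% of all 35116 promoters of the table hold these letters. CANNTG, the E-box bound by basic helix-loop-helix proteins, is not among these 250 bases and is held by 61.8% of promoters of the same length. Promoters were found for 6 of the 9 factors. In them G and C made up 49.6% to 72.0% of the bases, against a median of 58.0% over all promoters, and the observed over expected ratio of CpG ran from 0.46 to 1.20 against 0.56. The value of 49.6% belonged to the downstream start of NKX2-1.

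Around NEUROD1, 23 proneural and neuroendocrine transcription factors and inhibitors were read, of which 9 were detected. Among these 9, 1 gene, ST18, was at least 2-fold higher and none were lower, where 2.72% of the detected named genes were higher and 3.39% lower. ST18, a zinc finger factor related to MYT1, had a single spot with a signal of 84.7 after #1 siHOTAIR and 5.81 after siGFP. It was at least 2.87-fold higher, a bound that sets the dim array to its lowest signal well above background. With normexp its log2 ratio was 0.997 and without background subtraction 0.81, both under 2-fold. The median ratio of the 9 genes was 0.26, against 0.02 over all detected named genes, and with spike-in scaling the median of the 9 was 0.40. HES6 and TCF4 were named after their values had been seen. HES6, a helix-loop-helix factor of neural differentiation, had 4 probes on both arrays, and the one with the brightest signal had 4704 and 4671, a ratio of -0.04. TCF4, an E protein that pairs with NEUROD1, had 1083 and 949.1 and a ratio of 0.14. Of the relatives of NEUROD1, NEUROG3 was detected on both arrays, with 556 and 450 and a ratio of 0.26, and was likewise named after its values had been seen. NEUROD2, NEUROD4, NEUROD6, NEUROG1, NEUROG2 and ATOH1 were well above background on neither array.

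ID1, ID2 and ID3, inhibitors that capture E proteins and keep them from DNA, were singled out after their values had been seen. ID1 had a signal of 1121 after #1 siHOTAIR and 732 after siGFP, a ratio of 0.57. For ID2 the signals were 17560 and 11240, a ratio of 0.60, and its other probe gave 0.63. ID3 had 579 and 366 and a ratio of 0.62. All 3 were higher by more than the measurement SD, which ran from 0.05 to 0.10, and none reached 2-fold. At 1.5-fold, which ID2 and ID3 passed and ID1 did not, 8.11% of the detected named genes were higher. Under the other scalings and background corrections their ratios ran from 0.46 to 0.76, and ID4 was well above background on neither array.

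**Figure D3:**
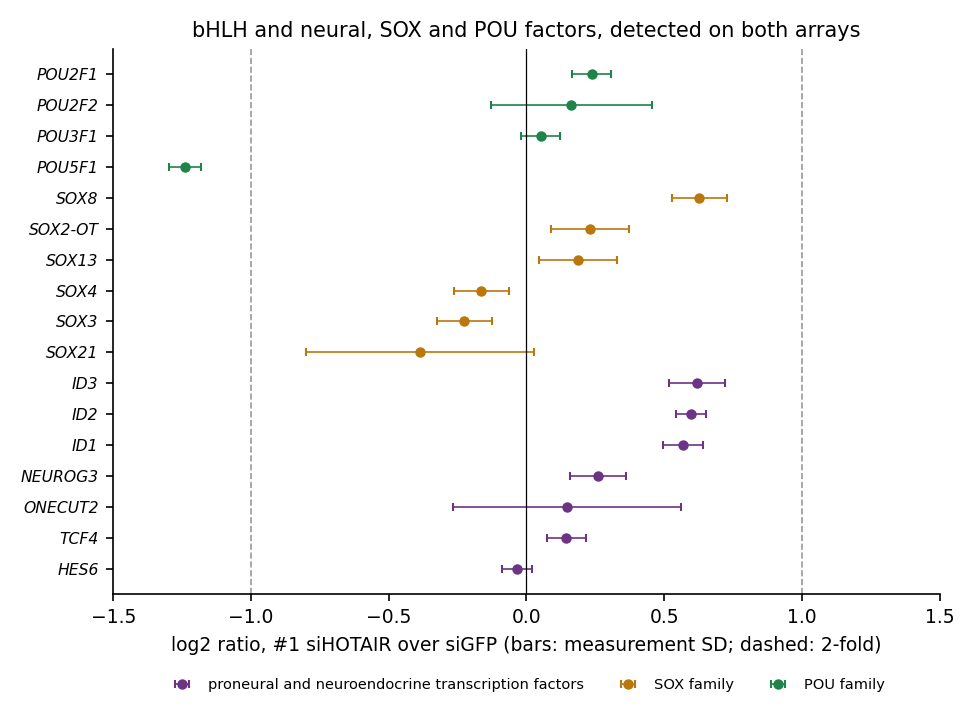
Log2 ratio of the genes of 3 lists (proneural and neuroendocrine factors, SOX family, POU family) that were well above background on both arrays, with bars for the measurement SD and dashed lines at 2-fold. ID1, ID2 and ID3 lie together between 0.57 and 0.62, and POU5F1, at -1.24, is the gene beyond the 2-fold line.

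YAP1 was clearly detected and hardly differed. It was read from 10 spots, of which 1 was marked as an outlier on both arrays. The other 9 had a lowest, median and highest signal of 5695, 6636 and 6911 after #1 siHOTAIR and of 6273, 6689 and 7164 after siGFP. The ranges of the spots overlapped, and some spots had the higher unscaled signal after #1 siHOTAIR. After each array was set to its 75th percentile, all 9 spot ratios were below 0, from -0.28 to -0.00. The ratio of the probe was -0.10 with a measurement SD of 0.04. Its direction depended on the scaling, since setting the arrays to their spike-in RNA gave 0.04.

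**Figure D4:**
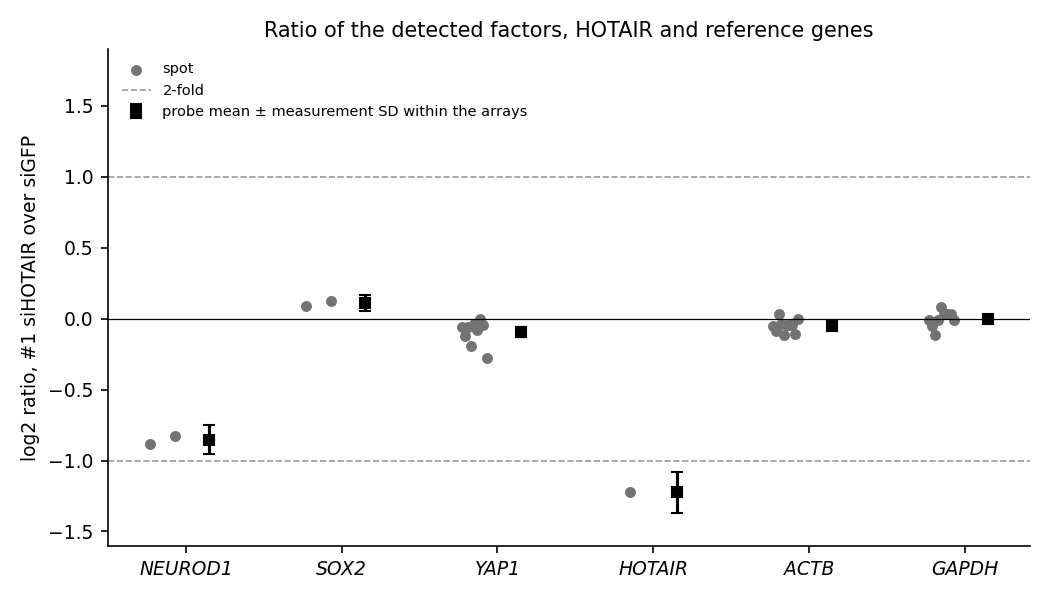
Log2 ratio of each usable spot (grey points) and of the probe with its measurement SD (black squares and bars) for NEUROD1, SOX2, YAP1, HOTAIR and the reference genes ACTB and GAPDH, with dashed lines at 2-fold. The spots of NEUROD1 lie at -0.88 and -0.82, between HOTAIR at -1.22 and the 4 other genes near 0.

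YAP1 acts through the TEAD proteins, which bind DNA for it, and is held in the cytoplasm by the kinases LATS1 and LATS2. Of 20 genes of this pathway, 17 were well above background, in each case on both arrays. No member reached a 2-fold change, where 2.72% of the detected named genes were higher and 3.39% lower. At 1.5-fold 2 of the 17 were higher and none lower, against 8.11% and 8.67% of the detected named genes. TEAD1 had signals of 996.5 after #1 siHOTAIR and 1223 after siGFP and a ratio of -0.34, TEAD3 had a ratio of -0.45 and TEAD4, with 2237 and 1400, a ratio of 0.63. WWTR1, the paralogue of YAP1 also called TAZ, had signals of 335 and 426 and a ratio of -0.39. LATS2 had a ratio of 0.33. MOB1B, a LATS cofactor, had 0.66 on its brightest probe and -0.11 and -0.02 on the others. NF2, which activates the kinases, had -0.14 on its brightest probe and 0.34 on another, and STK4 had 0.11. TEAD1, TEAD3, WWTR1 and LATS2 fell outside the naming rule and were chosen after their values had been seen. The median ratio of the 17 genes was -0.11, and spike-in scaling brought it to 0.02.

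Of 22 target genes of YAP1 and TEAD, 16 were detected, 15 of them on both arrays. CCN1, a secreted matrix protein and common readout of YAP1 activity, had a signal of 4700 after #1 siHOTAIR and 8002 after siGFP. Its ratio was -0.81 with a measurement SD of 0.05. AMOTL2, a scaffold that binds YAP1 and is its target, had 3463 and 5840 on 1 spot, a ratio of -0.80 with an SD of 0.08. Neither reached 2-fold. CCN2, which together with ANKRD1 is the other common readout, had 170 and 212, a ratio of -0.36, and ANKRD1 was well above background on neither array. The receptor kinase AXL had -0.30, the LIM protein AJUBA -0.29 and the coagulation factor F3 -0.47, all chosen after their values had been seen. AMOTL1 had 0.21 on its brightest probe and -0.36 on another, and NUAK2, a kinase, 0.17.

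RBMS3, an RNA-binding protein, counted as 2-fold lower only through a signal that was not well above background. Its signals were 16.4 after #1 siHOTAIR and 51.6 after siGFP, and its bound was -0.52, under 2-fold. Among the 16 genes, 11 ratios were below 0 and 5 above, with a median of -0.10, against 0.02 over all detected named genes. This median also turned, to 0.04, under the spike-in scaling. The values of CCN1 and AMOTL2 did not turn under any scaling or background correction and lay between -0.83 and -0.66. At 1.5-fold, CCN1, AMOTL2 and, through its signal not well above background, RBMS3 made 3 of the 16 lower. One gene, TGFB2, was higher at 0.62, against 8.67% lower and 8.11% higher of the detected named genes. The measurement SD of TGFB2 was 0.29. With normexp its ratio was 0.20 and without background subtraction 0.13, both under 1.5-fold.

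**Figure D5:**
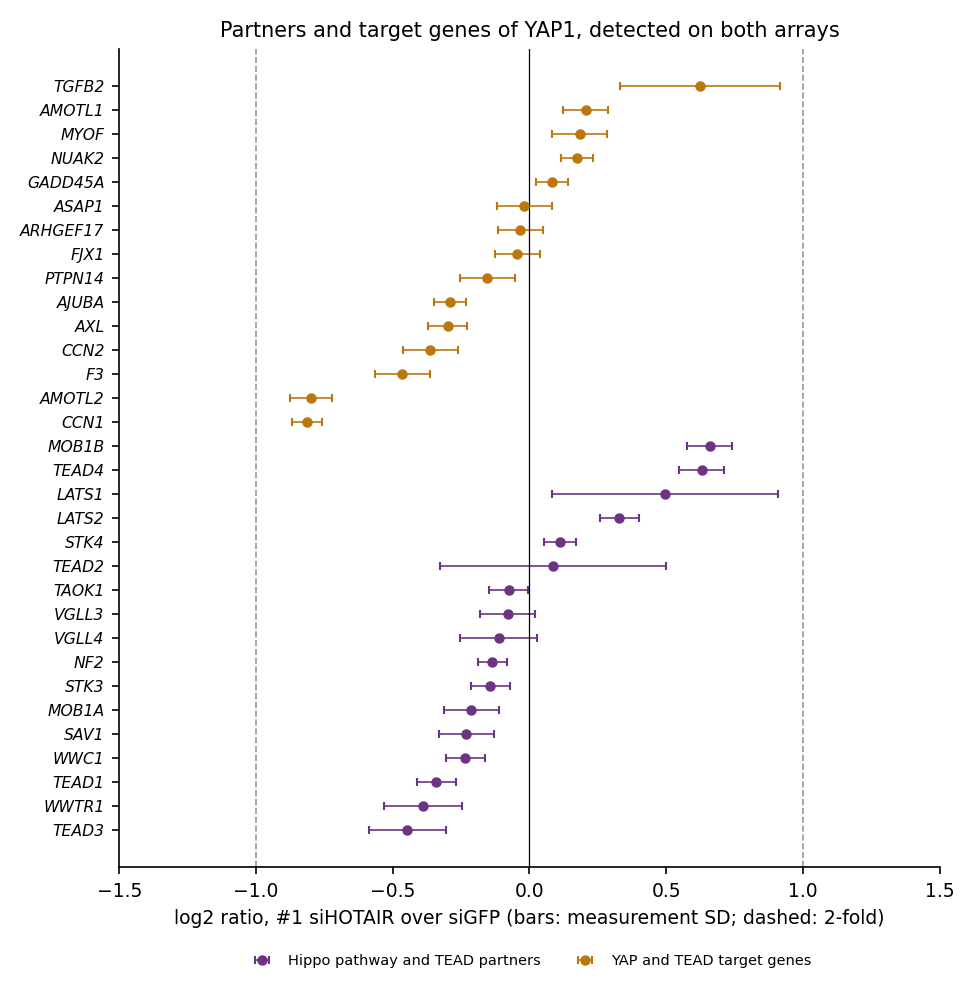
Log2 ratio of partners (purple) and target genes (ochre) of YAP1 that were well above background on both arrays, sorted within each list, with bars for the measurement SD and dashed lines at 2-fold. CCN1 at -0.81 and AMOTL2 at -0.80 stand apart at the lower end of the targets, and no gene reaches the 2-fold lines.

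TEAD proteins bind GGAATG, and the promoters of YAP1 and CCN2 are shown because both hold it. The 250 bases before the start of YAP1 lie at chr11:102110197-102110446 on the plus strand and those of CCN2 at chr6:131951373-131951622 on the minus strand (GRCh38.p14, sequences from RefSeq). Capitals mark GGAATG, searched on both strands.
YAP1: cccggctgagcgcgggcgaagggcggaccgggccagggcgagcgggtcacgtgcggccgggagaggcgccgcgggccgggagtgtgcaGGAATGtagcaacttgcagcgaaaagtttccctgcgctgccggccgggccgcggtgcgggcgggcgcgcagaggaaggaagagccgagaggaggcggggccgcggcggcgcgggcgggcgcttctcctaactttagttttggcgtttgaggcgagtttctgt
CCN2: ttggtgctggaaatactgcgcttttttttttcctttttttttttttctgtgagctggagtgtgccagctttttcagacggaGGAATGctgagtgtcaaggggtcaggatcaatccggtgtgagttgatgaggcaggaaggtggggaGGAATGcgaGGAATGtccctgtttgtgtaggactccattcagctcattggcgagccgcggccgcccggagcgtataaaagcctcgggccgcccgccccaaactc
The 3 matches of CCN2 begin 169, 104 and 95 bases before its start, and the match of YAP1 162 bases before. These letters are in 11.9% of all promoters of the table. Of the 22 target genes 16 had a promoter there, and 9 of the 16 held GGAATG in at least 1 promoter, AMOTL2 among them at its downstream start. Such a match describes the letters of the window and is not evidence of binding. The targets are known as such in part because of such sites, so their share is not independent of how they were listed. That share counts genes with a match in any of their promoters, while the 11.9% counts single promoters, so the units differ.

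SOX2, a factor of stem cells and of the foregut that is often amplified in SCLC, was detected with bright signals. Its spots had 26043 and 25897 after #1 siHOTAIR and 23663 and 22951 after siGFP. Both spots were higher after #1 siHOTAIR, with a ratio of 0.11 and a measurement SD of 0.05. Under the other scalings and background corrections the ratio ran from 0.10 to 0.25. SOX2-OT, the noncoding transcript in whose intron SOX2 lies, had signals of 325 and 268 on 1 spot, a ratio of 0.23.

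Of the rest of the SOX family, 8 of 18 genes including SOX2-OT were detected, none at least 2-fold higher and 1, SOX1, lower, against 2.72% and 3.39% of the detected named genes. The median ratio was -0.19, and it was 0.01 over the 6 genes measured on both arrays. SOX1, a close relative of SOX2, had 1 spot with 7.54 after #1 siHOTAIR and 42.2 after siGFP, and its bound was -0.23. SOX3, of the same group, had 217 and 246 and a ratio of -0.23. SOX8 had 876.5 and 549.5 and a ratio of 0.63, and SOX13 had 0.19. SOX4 and SOX21 gave -0.16 and -0.39. SOX9 and SOX11 were well above background on neither array.

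POU2F3, the tuft cell factor, had spots of 8.33 and 10.7 after #1 siHOTAIR and of 6.34 and 15.1 after siGFP, so no fold change can be given. Of 23 genes of the tuft cell programme, 6 were detected. None reached a 2-fold change, where 2.72% of the detected named genes were higher and 3.39% lower. The median ratio of the 6 genes was 0.13, which was 0.06 without background subtraction and 0.27 with spike-in scaling. ASCL2, AVIL and the POU2F3 coactivators POU2AF2 and POU2AF3 were among the 17 that were well above background on neither array. CHAT, the enzyme of acetylcholine synthesis, had 703 and 586 and a ratio of 0.22, and TRPM5, the taste channel, 327 and 279 and a ratio of 0.18. IGF1R, which many other cells also express, had 527 and 437 and a ratio of 0.22, and HMX3 had a ratio of 0.06. GFI1B, a zinc finger factor, was the tuft cell gene past 1.5-fold, with 31.4 and 50.3 and a ratio of -0.73. At its bound the ratio was -0.48, under 1.5-fold. GFI1B was named after its values had been seen. At 1.5-fold, 8.11% of the detected named genes were higher and 8.67% lower. Of the 6 ratios 5 were above 0.

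INSM1, a zinc finger factor used as a neuroendocrine marker in pathology, was read from 10 spots. Without the 1 spot marked as an outlier on the #1 siHOTAIR array, which had a signal of 37.2, the probe had a mean signal of 8.37 after #1 siHOTAIR and 6.46 after siGFP. No spot of the probe was well above background. Spots not called well above background had a median signal of 9.49 with #1 siHOTAIR and 7.33 with siGFP, so dim signals were offset between the arrays in the same direction.

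The label of the cells as SCLC was set against 22 neuroendocrine marker genes, of which 9 were detected, 5 of them on both arrays. Synaptophysin (SYP), GRP, CALCA, DDC and UCHL1 were among the 13 that were well above background on neither array. Signals summed over the list were 5761 after #1 siHOTAIR and 4209 after siGFP, of which the BEX1 probe, the one with the highest signal, made up 3761 and 2327, a ratio of 0.65. DLL3, an inhibitory Notch ligand of SCLC, had 679 and 570 and a ratio of 0.21, and ENO2 had 620 and 770 and a ratio of -0.36.

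CHGA, CHGB and NCAM1, a granule protein pair and the adhesion molecule CD56, were well above background after #1 siHOTAIR only and counted as at least 2-fold higher. CHGA had spots of 75.4 and 69.2 against 7.57 and 13.7 and was at least 2.44-fold higher. Its log2 ratio was 0.72 with normexp and 0.54 without background subtraction, both under 2-fold. CHGB had 27.9 against 7.43 and NCAM1 25.5 against 7.20, means of 2 spots that lay below the lowest signal well above background, so no fold is given for them. NCAM1 had 3 probes, and the others were well above background on neither array. None of the 22 genes was at least 2-fold lower. Over all detected named genes the shares were 2.72% higher and 3.39% lower. The median ratio of the 9 genes was 0.65, and it was 0.11 both over the 5 measured on both arrays and with dim signals at their bound.

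NKX2-1, the factor of lung and thyroid identity, had spots of 8.08 and 9.32 after #1 siHOTAIR and of 6.21 and 13.5 after siGFP. Of 14 named genes it regulates or lies beside, 7 were detected. No ratio reached 2-fold, where 2.72% of the detected named genes were higher and 3.39% lower. The median ratio of the 7 genes was -0.08, but 0.01 over the 6 measured on both arrays, 0.01 with normexp and 0.06 with spike-in scaling. The surfactant genes SFTPA1, SFTPB and SFTPD were well above background on neither array. ABCA3, a lipid transporter, had 1814 and 2334 and a ratio of -0.41, and SCGB3A2 had 598 and 656 and a ratio of -0.18. LPCAT1, an enzyme of phospholipid synthesis, had 391.8 and 241.8 and a ratio of 0.65. SFTPA2 had 865 and 886 and a ratio of -0.08 on a probe with 1 spot, while its other probe had background signals of 9.31 and 7.14.

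FOXA2, a pioneer factor of the foregut, had spots of 9.81 and 8.28 after #1 siHOTAIR and of 7.37 and 6.37 after siGFP. FOXA1 was well above background on neither array and FOXA3 after #1 siHOTAIR only, with 35.2 against 29.6. Of 16 other endoderm factors 7 were detected and none differed by 2-fold, where 2.72% of the detected named genes were higher and 3.39% lower. The median ratio of the 7 factors was -0.12, but -0.26 over the 6 measured on both arrays and 0.01 with spike-in scaling. CEBPA had 3650 and 2514 and a ratio of 0.49, GATA6 had -0.12 and PAX9 0.02. GATA4, named after its values had been seen, had 34.4 and 63.6 and a ratio of -0.93 with a measurement SD of 0.29. It was the factor of this list past 1.5-fold, where 8.67% of the detected named genes were lower and 8.11% higher. With normexp its ratio was -0.26 and without background subtraction -0.25. Of the 7 ratios 3 were above 0 and 4 below.

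POU3F2, a neural factor also called BRN2, had spots of 10.01 and 11.2 after #1 siHOTAIR and of 7.80 and 6.64 after siGFP. Its paralogue POU3F1 was detected, with 848 and 792 and a ratio of 0.05, and POU3F3 was not. Of 12 named genes of the POU family, 6 were detected, 3 of them lower by at least 2-fold and none higher, against 3.39% and 2.72% of the detected named genes. POU5F1, the pluripotency factor OCT4, was the one measured on both arrays, with spots of 1546 and 1399 after #1 siHOTAIR and of 3428 and 3296 after siGFP. Its ratio was -1.24 with a measurement SD of 0.06. A second POU5F1 probe, with 1 spot, had 76.8 and 178 and a ratio of -1.26. POU5F1 has near-identical retrogene copies, which these probes may also detect. The ratio lay between -1.25 and -1.10 under the other scalings and background corrections. POU1F1 and POU3F4 had signals of 9.22 and 17.95 after #1 siHOTAIR and of 24.97 and 35.8 after siGFP. They were lower only through signals that were not well above background, so no fold is given for them. The median ratio of the 6 genes was -0.49, and it was 0.11 over the 4 measured on both arrays and 0.03 with dim signals at their bound.

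ISL1, a LIM homeodomain factor of motor neurons and endocrine cells, had spots of 9.16 and 9.34 after #1 siHOTAIR and of 7.004 and 7.14 after siGFP. Of 19 other LIM homeodomain genes and cofactors 13 were detected, 1 higher by at least 2-fold and none lower, against 2.72% and 3.39% of the detected named genes, with a median ratio of 0.18, which was 0.04 with normexp and 0.31 with spike-in scaling. This was LMO2, a LIM-only protein of blood cells, with a mean of 65.3 over 10 spots after #1 siHOTAIR and of 28.8 after siGFP. Each of its 10 spots was higher after #1 siHOTAIR, by log2 ratios from 0.74 to 1.54, and the ratio of the probe was 1.13. Its mean after siGFP was not well above background, and with normexp the ratio was 0.45 and without background subtraction 0.38, both under 2-fold. LMO4, the relative with a bright signal, had 40130 and 43510 and a ratio of -0.16, and LHX1 and LHX2 had 0.28 and 0.12.

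Markers of other cells were read beside the factors. Of 13 fibroblast markers 3 were well above background, with a median ratio of 0.19, which was 0.32 with spike-in scaling. The collagen COL1A2 had 3758 and 3741 and a ratio of -0.04, COL1A1 had 832 and 414 and a ratio of 0.96, and TWIST2 had 0.19. DCN, LUM and PDGFRA were well above background on neither array, and the summed signals were 5195 and 4664. Of 9 leukocyte markers 5 were detected, with a median ratio of 0.55, or 0.32 with the median over the probes of each gene, and summed signals of 916 and 702. The CD3D probe had the highest signal in the list, 283 and 219, TYROBP and CD14 had ratios of 0.55 and -0.17, and CD3E and CSF1R were not detected. PTPRC had 0.75 on its brightest probe, with 1 spot and a measurement SD of 0.41, and -0.83 on another probe, which was well above background after siGFP only. Of 12 airway epithelial markers 9 were detected, with a median ratio of -0.28, which was 0.08 over the 5 measured on both arrays and 0.00 with dim signals at their bound, and summed signals of 8441 and 7813. The probe of the keratin KRT7 had the highest signal in the list, 4321 and 3968, CLDN4 had a ratio of 0.46, and E-cadherin (CDH1) was not detected. KRT8 had 2825 and 2557 and a ratio of 0.10, but -0.82 on another probe that was well above background after siGFP only. KRT18 had -0.44 on a probe with 1 spot, and its other probe was likewise above background after siGFP only. EPCAM, with 9.19 and 25.1, was the epithelial marker counted as lower, through a signal that was not well above background. MUC1, named after its values had been seen, had 52.28 and 90.15 and a ratio of -0.83. With normexp the MUC1 ratio was -0.43 and without background subtraction -0.37, and its other probe was well above background on neither array. At 1.5-fold 2 of the 9 epithelial markers were lower and none higher, against 8.67% and 8.11% of the detected named genes. Over all 13 lists, the markers of other cells included, 115 of 222 named genes were detected, with 5 (4.35%) at least 2-fold higher and 6 (5.22%) lower, against 2.72% and 3.39% of the detected named genes. The part of other cell types in these ratios was not tested.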

How the data were processed

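RNA of 2 SBC-3 cultures was labelled with Cy3 by the authors and hybridized to 1 array each. Per the labels, the spots were extracted with Feature Extraction 10.10.1.1. Their deposited spot values are intensities corrected for background and for trends across the slide but not normalized between arrays, and the deposited value table equals the background-subtracted intensity of the same spots (largest difference 0). Outlier spots were left out, log2 signals were set to the 75th percentile of non-control spots and averaged per probe. A probe counted as well above background when at least 50% of its spots were. Ratios, counts and medians used the measured levels. For a probe so on 1 array, a bound was also computed, with the level on the other raised to its lowest spot well above background where it lay under it. Accessions were matched to RefSeq names of GRCh38.p14, which named 58.5% of probes, and a gene was read from its brightest probe. The measurement SD came from probes with 10 spots at 6 signal levels, or from the probe's own spots where it had at least 9. It is that of the mean over spots, so it shrinks as a probe has more spots. The scanner software's own error of the log2 ratio of a single spot was larger. It was 0.214 for NEUROD1, 0.204 for SOX2 and YAP1 and 0.235 for HOTAIR. The precision is limited by the number of arrays. Calling was run on simulated data with large changes planted in brighter probes only, so that run does not test calls on dim signals. Normexp was run in limma 3.58.1, with an offset of 50, on the median spot signal. The members and lists were chosen with earlier results of these data known. The rule named all members, list genes past 2-fold on both arrays or at their bound, and otherwise the 4 brightest of a list; other genes were named after their values were seen. Certain items are not reported here.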

Additional observations from a re-analysis of the deposited data

How the results depend on the processing

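Leaving out a replicate was not possible with 1 array per condition, and no paired analysis was possible because each condition had 1 array. The count of 3 detected factors was the same when every spot, or both arrays, had to be well above background, and was 6 with positive and significant spots. No factor passed 2-fold under any scaling or background correction, and 1, NEUROD1, passed 1.5-fold. Its ratio was -0.71 with spike-in scaling, -0.64 with normexp and -0.63 without background subtraction. SOX2 moved to 0.25 with spike-in scaling. YAP1 moved to 0.042 with spike-in scaling and to -0.050 with no scaling. HOTAIR moved to -0.76 with normexp and -0.73 without background subtraction. Counts of all probes, 795 higher and 989 lower, were 1025 and 781 with spike-in scaling, 873 and 899 with no scaling, 227 and 187 with normexp, 173 and 154 without background subtraction, 2050 and 2348 at 1.5-fold, 377 and 411 at 3-fold, and 1933 and 1866 with no filter on signal. Over all lists, markers of other cells included, 5 higher and 6 lower became 0 and 2 with normexp, 0 and 1 without background subtraction, 17 and 12 at 1.5-fold, and 3 and 1 with dim signals at their bound. With every spot required, 3 were higher, and at 3-fold 2 were lower. Spike-in scaling raised the median ratio of probes well above background on both arrays from 0.03 to 0.17. The cause of the smaller ratios without background subtraction was not tested. Signal over background limits the dim genes, and the 6 undetected factors have no ratio.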
